A study of Mus musculus with 7 samples.

Results

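The genes described here encode the classical MHC class I molecule of the mouse and the machinery that loads it with peptide: the light chain B2m, the heavy chains H2-K1 and H2-D1, the peptide transporter subunits Tap1 and Tap2, and the chaperone Tapbp. They were chosen by name, and all 6 were found among 36666 rows of the gene table by an exact match to their symbols. The study sequenced mRNA from the cerebral cortex of C57BL/6 mice, a wild-type inbred strain, and no sample carried a treatment or an engineered allele. The adult group held 3 young adult cortices and the embryonic group held 4 cortices taken at embryonic day 17. Exact adult ages, and whether each sample came from 1 animal, are not given in the labels. The p-values below thus judge differences against the spread between these samples, which may not be the spread between animals. The libraries came from whole tissue, in which fewer cells of a type and less RNA per cell cannot be told apart.

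An MHC class I molecule is a membrane heavy chain paired with B2m, which holds a short peptide in a groove for inspection by CD8 T cells and natural killer receptors. The proteasome cuts the peptides, the Tap1 and Tap2 heterodimer pumps them into the endoplasmic reticulum, tapasin (Tapbp) bridges the transporter to empty heavy chains, and chaperones and aminopeptidases finish the complex. Interferons raise transcription of most of these genes. In the brain, class I molecules are known from microglia and endothelium and also from neurons, where they have been studied in the refinement of synapses.

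H2-K1, H2-D1, Tap1, Tap2 and Tapbp lie on chromosome 17 and B2m on chromosome 2. In the RefSeq gene order, Tap1 stands between Psmb9 and Psmb8, Tap2 between Psmb8 and H2-Ob, H2-K1 between H2-K2 and Ring1, H2-D1 between Ddx39b and H2-Q1, Tapbp between Zbtb22 and Rgl2, and B2m between Patl2 and Trim69. RefSeq promoters of build GRCm38.p6 were at hand for 5 of 6 genes, all but Tap2. The 3 below are shown because they belong to the chains of the molecule itself, and because H2-K1 and H2-D1 differed in how far they moved. Each is the 250 bases before the annotated start site, read 5′ to 3′ on the gene's strand. They cover chr2:122147437-122147686 on the plus strand for B2m, chr17:34000348-34000597 on the minus strand for H2-K1 (the first of 2 starts listed), and chr17:35262844-35263093 on the plus strand for H2-D1. Capitals mark matches on either strand to the kappaB consensus, to the interferon regulatory factor letters GAANNGAAA and to the consensus of the interferon-stimulated response element (ISRE).
B2m: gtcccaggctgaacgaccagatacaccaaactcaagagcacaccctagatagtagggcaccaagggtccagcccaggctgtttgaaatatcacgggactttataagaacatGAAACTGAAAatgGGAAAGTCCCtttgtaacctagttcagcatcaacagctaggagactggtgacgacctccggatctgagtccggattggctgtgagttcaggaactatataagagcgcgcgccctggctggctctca
H2-K1: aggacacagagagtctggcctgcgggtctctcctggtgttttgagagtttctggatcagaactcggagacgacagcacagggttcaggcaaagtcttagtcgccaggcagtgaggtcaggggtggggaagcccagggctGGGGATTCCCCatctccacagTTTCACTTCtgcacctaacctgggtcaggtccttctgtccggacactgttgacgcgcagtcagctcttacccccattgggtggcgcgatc
H2-D1: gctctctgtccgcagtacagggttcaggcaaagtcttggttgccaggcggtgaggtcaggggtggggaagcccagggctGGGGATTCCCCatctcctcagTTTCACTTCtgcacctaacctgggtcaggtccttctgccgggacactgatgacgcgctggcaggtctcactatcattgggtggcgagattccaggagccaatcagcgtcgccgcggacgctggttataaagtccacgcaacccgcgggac
H2-K1 and H2-D1 each held a kappaB match and, starting 20 bases after the start of the letters GGGATTCC, a match to GAANNGAAA on the opposite strand. From GGGATTCC to the first CCAAT box, 88 of 99 aligned bases of H2-K1 and H2-D1 were identical (88.9%). B2m held a kappaB match and an ISRE match, while no match to these letters was found in the windows of Tap1 and Tapbp. The searches covered 250 bases before and 50 after the start. Over 32851 promoters of that length, 4.51% held the kappaB consensus, 7.52% GAANNGAAA, 3.44% the ISRE and 1.06% GGGATTCC. A match of letters is a description of the sequence and not of binding.

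The depth was 22917243, 23606525 and 22734208 reads in genes in adult samples 1 to 3, and 18444272, 22575949, 21253472 and 21641243 in embryonic samples 1 to 4. Levels are given as CPM, the recovered reads scaled to 1000000 reads in genes. A difference is the adult mean minus the embryonic mean on the deposited log2-like scale; away from low levels, 1 unit is about 2-fold. A gene was called when its Benjamini-Hochberg adjusted p was below 0.05 in limma over 22828 tested genes. The whole transcriptome differed between the stages: 35.8% of tested genes were called higher in adult cortex and 33.9% lower, with a median difference of 0.03. Counts of called genes below are to be read beside these shares. Markers of cortical neurons were abundant in both groups, with a summed level of 6944 to 7908 CPM in adult and 1892 to 2025 CPM in embryonic samples, and with Slc17a7, Camk2a and Snap25 higher in adult samples and Tbr1, Neurod6 and Emx1 lower.

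All 6 genes had reads in all 7 samples, and all 6 rose in adult cortex, beside 35.8% of all tested genes that did. Their median difference was 2.10, and the groups did not overlap for any of them, as for 35.7% of tested genes in that direction. The size of the rise was unequal. B2m and H2-K1 were more than 10-fold higher in adult cortex, Tap2 was 8.68-fold higher, H2-D1 2.68-fold, Tap1 2.26-fold and Tapbp 1.59-fold. Against a null of 2-fold, which 14.0% of tested genes passed upward, the limma treat test called B2m, H2-K1, H2-D1 and Tap2, and gave an adjusted p of 1 for Tap1 and Tapbp.

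**Figure D1:**
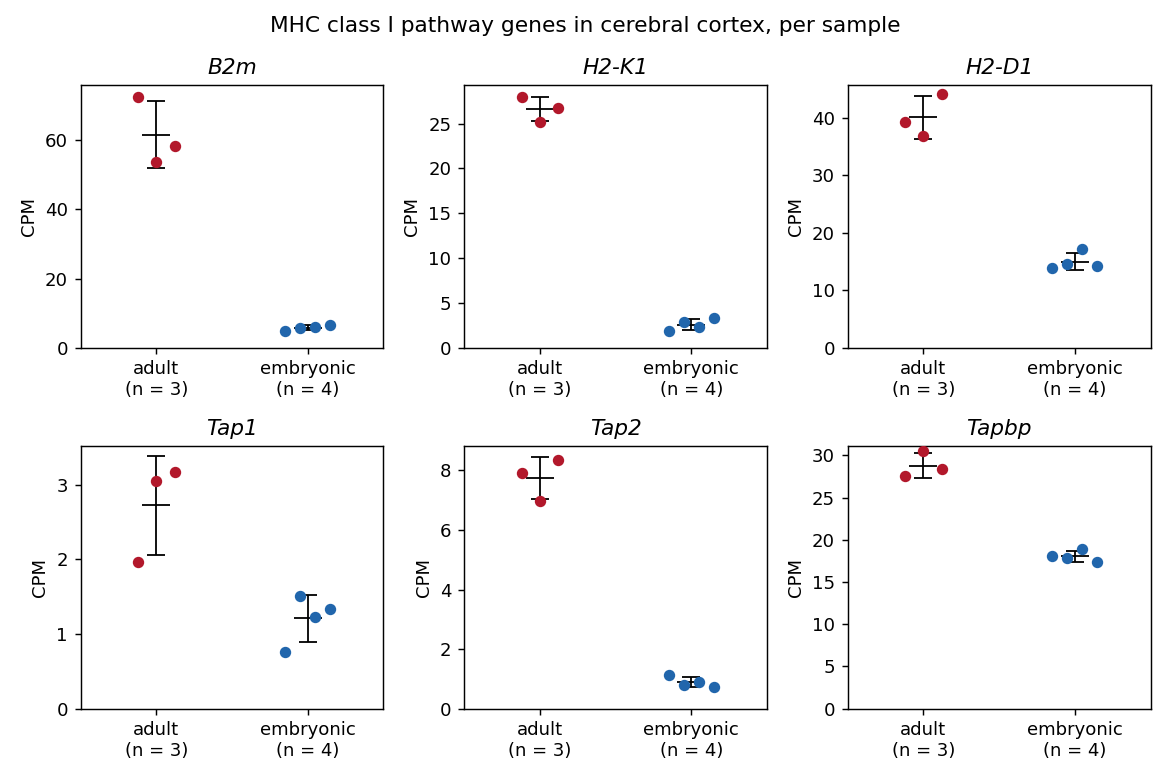
CPM of the 6 MHC class I pathway genes (vertical axes, linear from 0) in adult (left, red, n = 3) and embryonic (right, blue, n = 4) cortex. Each point is a sample and bars give the mean and SD; every adult point lies above every embryonic point, with the widest gaps for B2m, H2-K1 and Tap2.

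B2m, the invariant light chain, had 72.5, 53.8 and 58.4 CPM in adult samples, against 4.93, 5.71, 6.02 and 6.56 CPM in embryonic samples. Adult sample 1 was the highest, and the lowest adult sample was far above every embryonic one. The means were 61.6 ± 9.77 CPM in adult and 5.81 ± 0.680 CPM in embryonic cortex (SD, n = 3 and 4), a difference of 3.33 (SE 0.12, 95% interval 3.08 to 3.59) with a limma adjusted p of 1.51e-11. Only 2.68% of tested genes had a larger difference.

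H2-K1, the K heavy chain, had 27.9, 25.2 and 26.8 CPM in adult samples, against 1.84, 2.88, 2.35 and 3.28 CPM in embryonic samples. The adult samples lay close together, and embryonic sample 1 was the lowest of its group. The difference was 3.21 (SE 0.15, 95% interval 2.88 to 3.53, limma adjusted p = 2.45e-10), and 3.04% of tested genes had a larger difference. H2-D1, the D heavy chain, had 39.3, 36.9 and 44.2 CPM in adult samples, against 13.8, 14.6, 17.2 and 14.3 CPM in embryonic samples. Embryonic sample 3 was the highest of its group and still well below every adult sample. The difference was 1.46 (SE 0.10, 95% interval 1.24 to 1.68, limma adjusted p = 1.32e-08), and the intervals of H2-K1 and H2-D1 did not overlap.

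Because H2-K1 and H2-D1 are close in sequence, some of their reads may be interchangeable. Of all 36-base words in the transcripts of H2-K1, 17.6% also occur in transcripts of other genes, most often H2-D1, and 21.7% of those in H2-D1 occur elsewhere, most often in H2-K1. At 75 bases the shares were 3.1% and 5.4%. Read length and the handling of reads with several matches are not given in the sources used here. B2m shared no word with another gene at either length.

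Tap1 had 1.96, 3.05 and 3.17 CPM in adult samples, against 0.759, 1.51, 1.22 and 1.34 CPM in embryonic samples. Adult sample 1 was the lowest adult sample and stood near the highest embryonic sample. These values rest on 45 to 72 reads a sample in adult and 14 to 34 in embryonic cortex. The difference was 1.05 (SE 0.22, 95% interval 0.57 to 1.52, limma adjusted p = 0.000748). Tap2, its partner, had 7.90, 6.99 and 8.36 CPM in adult samples, against 1.14, 0.797, 0.894 and 0.739 CPM in embryonic samples. The groups were far apart, and embryonic sample 1 was the highest embryonic sample for Tap2 but the lowest for Tap1. Tap2 had 181, 165 and 190 reads in adult samples, against only 21, 18, 19 and 16 reads in embryonic samples. The difference was 2.74 (SE 0.16, 95% interval 2.39 to 3.09, limma adjusted p = 2.83e-09), and its interval did not overlap that of Tap1.

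Tapbp, tapasin, had 27.5, 30.5 and 28.4 CPM in adult samples, against 18.1, 17.8, 19.0 and 17.4 CPM in embryonic samples. It moved least of the 6 genes, and it was the least variable of them among embryonic samples but not among adult samples. The difference was 0.73 (SE 0.09, 95% interval 0.55 to 0.92, limma adjusted p = 3.54e-06), and 28.9% of tested genes had a larger one. In GENCODE M21, exons of Tapbp overlap Zbtb22 on the same strand and Gm19412 on the other. Exons of Tap1 overlap Psmb9, and those of Tap2 overlap Gm15821 and Gm20496, on the opposite strand. The labels do not say if strand was used in counting, so reads from the overlaps cannot be told apart.

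Per kilobase of exon, the adult levels ran in the order B2m (71.6 ± 11.4 CPM per kilobase), H2-D1 (15.5 ± 1.44), H2-K1 (9.07 ± 0.465), Tapbp (7.94 ± 0.422), Tap2 (2.05 ± 0.184) and Tap1 (0.498 ± 0.121, SD, n = 3 each). The ranges of neighbours in this order did not overlap. In embryonic cortex the order was B2m (6.75 ± 0.791 CPM per kilobase), H2-D1 (5.80 ± 0.584), Tapbp (4.98 ± 0.180), H2-K1 (0.881 ± 0.213), Tap2 (0.236 ± 0.0466) and Tap1 (0.220 ± 0.0585, SD, n = 4 each). There the ranges of B2m and H2-D1 overlapped, as did those of Tap2 and Tap1. Per kilobase, H2-K1 stood below Tapbp in every embryonic sample and above it in every adult sample. In adult sample 2 that gap was small, at 8.58 against 8.41 CPM per kilobase. The adult order also depends on the exon lengths used: in CPM, H2-K1 was below Tapbp in adult samples 2 (25.2 against 30.5) and 3 (26.8 against 28.4).

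The balance within the pathway was followed by 7 ratios of reads taken inside each sample, chosen after the values were seen. H2-K1 had 0.711, 0.684 and 0.607 reads per H2-D1 read in adult samples, against 0.133, 0.198, 0.137 and 0.230 in embryonic samples. The lowest adult ratio was well above the highest embryonic one. The same separation held for B2m against H2-K1 and H2-D1 together, with 0.923 ± 0.137 reads per heavy-chain read in adult and 0.331 ± 0.0295 in embryonic samples. Tap2 had 4.02, 2.29 and 2.64 reads per Tap1 read in adult samples, against 1.5, 0.529, 0.731 and 0.552 in embryonic samples. Reads of Tap2 outnumbered those of Tap1 in all adult samples and in embryonic sample 1, and fell short of them in the other embryonic samples. Each of the 7 ratios was higher in all adult samples than in any embryonic sample. The exact two-sided permutation p was 0.0571 for each, the smallest that 3 against 4 samples allow, and stayed 0.0571 after Benjamini-Hochberg adjustment over the 7. Because the ratios were picked with the values known, this p is no test of them, before or after adjustment.

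**Figure D2:**
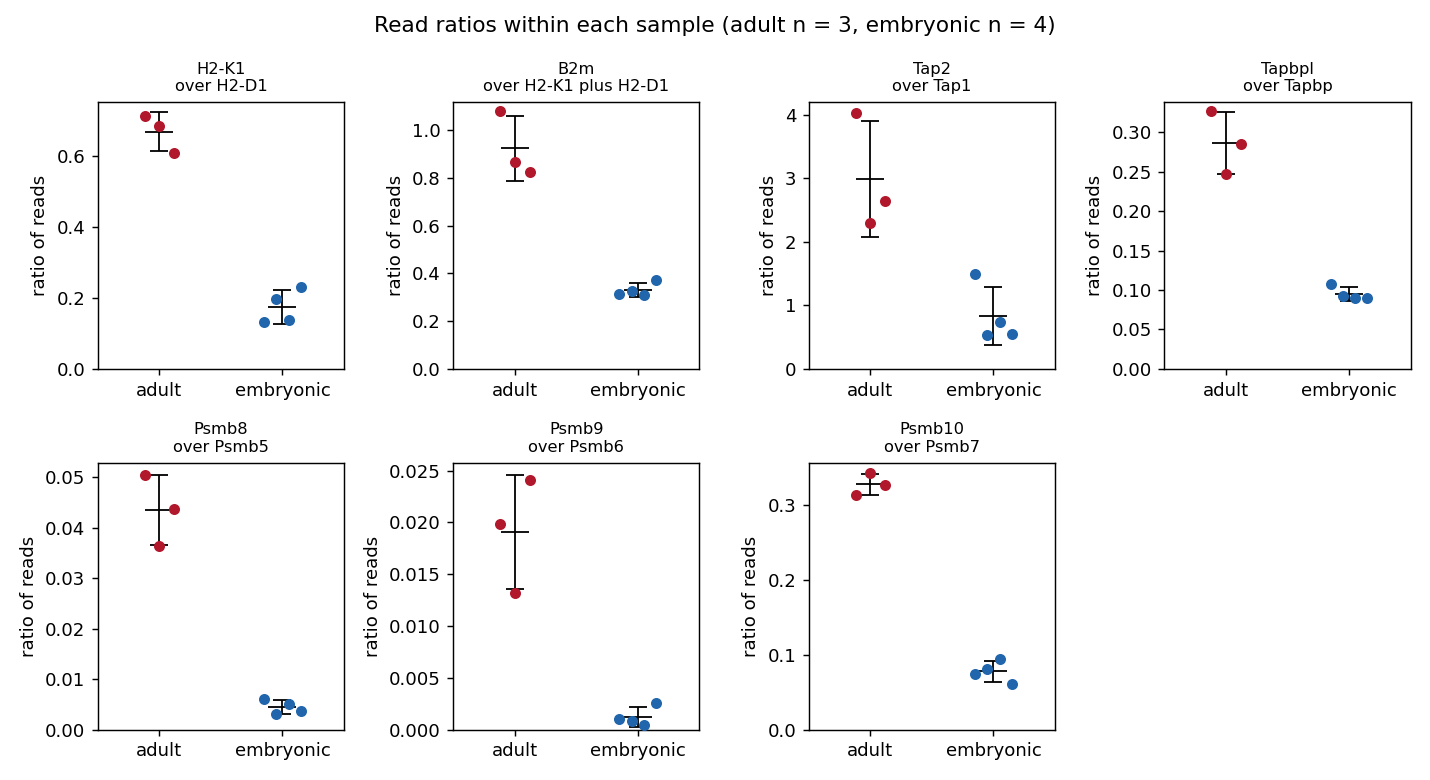
Ratio of reads of the named genes within each sample (vertical axes, linear from 0) in adult (left, red, n = 3) and embryonic (right, blue, n = 4) cortex, with mean and SD. In all 7 panels the adult points lie above the embryonic points; the ratio of Psmb9 to Psmb6 rests on 1 to 5 reads of Psmb9 in embryonic samples.

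The proteasome genes of peptide supply divided by subunit. Of 9 proteasome genes tested, 4 rose, 4 fell and 1 was not called, beside 35.8% higher and 33.9% lower over all tested genes. Their median difference was -0.02, beside 0.03 over all tested genes. The 3 catalytic subunits of the immunoproteasome, the interferon-inducible form, were all higher: Psmb8 averaged 2.73 ± 0.311 CPM in adult and 0.302 ± 0.0877 CPM in embryonic cortex, a difference of 2.49 (limma adjusted p = 2.05e-07). Psmb9 differed by 2.42 (limma adjusted p = 1.1e-05), with a range of 1.03 to 3.33 on other scalings, and Psmb10 by 1.77 (limma adjusted p = 8.4e-08). Of the constitutive subunits they replace, Psmb5 averaged 63.5 ± 7.82 CPM in adult and 68.1 ± 6.18 CPM in embryonic cortex and was not called, and Psmb6 and Psmb7 fell by 0.48 and 0.24. Psmb8 had 0.0435 ± 0.00701 reads per Psmb5 read in adult samples and 0.00445 ± 0.00133 in embryonic samples. Psmb10 had 0.328 ± 0.0145 reads per Psmb7 read in adult samples and 0.0783 ± 0.0140 in embryonic samples.

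The PA28 activator subunits went the other way. Psme1 averaged 16.4 ± 1.81 CPM in adult and 40.2 ± 6.29 CPM in embryonic cortex (difference -1.16, limma adjusted p = 1.74e-06), and Psme2 fell by 1.11. Psme3, the nuclear activator, was the fourth gene to rise, by 0.22, and the number called higher was 3 after median centring.

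All 6 endoplasmic reticulum chaperones and trimming enzymes rose, beside 35.8% of all tested genes, with a median difference of 0.64. Tapbpl, a tapasin relative that edits peptides, averaged 8.21 ± 0.731 CPM in adult and 1.71 ± 0.166 CPM in embryonic cortex, a difference of 2.06 (limma adjusted p = 7.98e-09). Erap1, the aminopeptidase that trims peptides to length, averaged 8.39 ± 1.58 CPM in adult and 1.93 ± 0.323 CPM in embryonic cortex, a difference of 1.94 (limma adjusted p = 8.46e-08). Calr, Canx, Pdia3 and Hspa5, general folding chaperones, differed by 0.26 to 0.67, and the number called in this list was 4 after median centring. Tapbpl had 0.286 ± 0.0396 reads per Tapbp read in adult samples and 0.0949 ± 0.00887 in embryonic samples.

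**Figure D3:**
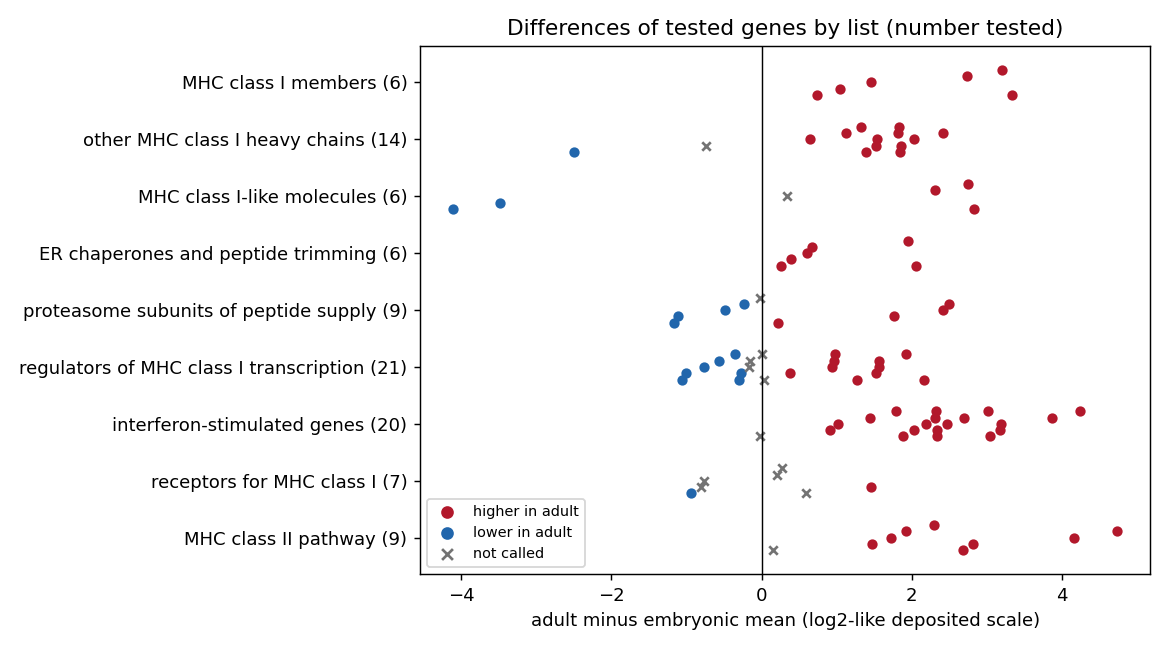
Adult minus embryonic difference (horizontal axis, log2-like deposited scale) of every tested gene in the MHC class I set and 8 related lists (rows, number tested in brackets). Red points were called higher in adult, blue points lower, and grey crosses were not called; the other heavy chains and interferon-stimulated genes lie mostly to the right, and the class I-like and proteasome lists fall on both sides.

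Among 25 other class I heavy chains listed, 19 were in the table and 14 were tested, of which 12 rose, 1 fell and 1 was not called (median difference 1.53). Over all tested genes the shares were 35.8% higher and 33.9% lower. H2-M3, which presents peptides beginning with formylated methionine, averaged 2.29 ± 0.299 CPM in adult and 0.260 ± 0.0797 CPM in embryonic cortex, a difference of 2.41 (limma adjusted p = 4.17e-07). H2-T23, the Qa-1 chain seen by natural killer receptors, averaged 13.7 ± 2.35 CPM in adult and 3.12 ± 0.676 CPM in embryonic cortex, a difference of 2.04 (limma adjusted p = 6.56e-08). H2-M5, a non-classical chain, was the exception: it averaged 1.43 ± 0.380 CPM in adult and 10.7 ± 1.01 CPM in embryonic cortex (difference -2.50, limma adjusted p = 4.71e-09). The family is closely related in sequence and its reads may be split or shared, so single members such as H2-Q6 and H2-Q7 are uncertain. Summed over the list, the level was 60.9, 46.6 and 64.1 CPM in adult samples, against 26.6, 26.6, 28.5 and 26.4 CPM in embryonic samples. Adult sample 2 was the lowest adult sample for the sum and for 11 of the 12 chains that rose, beside 35.5% of all tested genes, and for 4 of the 6 genes of the classical pathway.

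The class I-like molecules, which share the fold but not the peptide cargo, divided. Of 6 tested, 3 rose, 2 fell and 1 was not called, beside 35.8% higher and 33.9% lower over all tested genes. Mr1, which presents vitamin B metabolites to T cells, averaged 4.07 ± 0.254 CPM in adult and 0.405 ± 0.219 CPM in embryonic cortex, a difference of 2.83 (limma adjusted p = 1.63e-06). Fcgrt, the neonatal Fc receptor, averaged 15.5 ± 1.06 CPM in adult and 1.99 ± 0.118 CPM in embryonic cortex, a difference of 2.75 (limma adjusted p = 1.07e-10). Cd1d1, which presents lipids to natural killer T cells, fell: it had 18, 26 and 21 reads in adult samples, against 445, 560, 497 and 547 reads in embryonic samples. The groups were far apart, with means of 0.937 ± 0.158 CPM in adult and 24.4 ± 0.824 CPM in embryonic cortex (difference -4.11, limma adjusted p = 2.51e-12). Its close paralog Cd1d2 differed by -3.48, and reads may be shared between them. Mr1, Fcgrt and Cd1d1 all pair with B2m, so partners of the light chain moved in both directions.

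Of 21 regulators of class I transcription, 10 rose, 7 fell and 4 were not called, beside 35.8% higher and 33.9% lower over all tested genes. Their median difference was 0.03, the same as over all tested genes. Irf1, an activator of class I promoters, averaged 5.18 ± 1.45 CPM in adult and 0.915 ± 0.273 CPM in embryonic cortex, a difference of 2.16 (limma adjusted p = 9.48e-07). Irf8, a factor of myeloid cells, differed by 1.93. Nlrc5, the class I transactivator, had 23, 12 and 31 reads in adult samples, against 5, 6, 8 and 4 reads in embryonic samples, a difference of 1.27 (limma adjusted p = 0.00184). Its groups did not overlap, but adult sample 2 came close to the embryonic samples. Interferon receptor chains went both ways, with Ifngr1 higher by 1.57 and Ifngr2 and Ifnar1 lower, at -0.57 and -1.01. Jak2, a kinase of the interferon-gamma receptor, averaged 46.7 ± 4.51 CPM in adult and 104 ± 7.68 CPM in embryonic cortex (difference -1.06, limma adjusted p = 6.55e-08).

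Of 20 interferon-stimulated genes, 19 rose, none fell and Ifit2 was not called, beside 35.8% higher and 33.9% lower over all tested genes. Their median difference was 2.33. Ifit3, an antiviral protein of the IFIT family, averaged 8.27 ± 0.647 CPM in adult and 0.267 ± 0.225 CPM in embryonic cortex, a difference of 4.24 (limma adjusted p = 8.92e-08). Ifi27 averaged 19.99 ± 2.96 CPM in adult and 1.05 ± 0.296 CPM in embryonic cortex, a difference of 3.86 (limma adjusted p = 2.46e-10). Summed over the list, the level was 84.1 to 90.4 CPM in adult samples and 20.6 to 23.8 CPM in embryonic samples. The count was also 19 after median centring, and ran over 16 to 19 across the alternatives. Oas1a and Mx1 had 0 or 1 reads in each embryonic sample, and passed the filter on reads mainly through the adult group.

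Receptors that read class I molecules were scarce at both stages. Of 14 in the table, 7 had enough reads to be tested, and their summed level was 2.16 to 3.01 CPM in adult samples and 1.84 to 2.59 CPM in embryonic samples. Lilrb4, an inhibitory receptor of myeloid cells, had 8, 4 and 12 reads in adult samples, against 2, 3, 2 and 0 reads in embryonic samples (difference 1.45, limma adjusted p = 0.026). That call was lost without adult sample 1 (limma adjusted p = 0.0687) and without adult sample 3 (limma adjusted p = 0.109), and also with no filter on low values (limma adjusted p = 0.136) and with no mean-variance trend (limma adjusted p = 0.0586), within a range of 0.00756 to 0.635 over all alternatives. Without embryonic sample 4 the difference was 0.94. Cd247, the zeta chain of the T cell receptor complex, had 6, 3 and 2 reads in adult samples, against 9, 13, 7 and 9 in embryonic samples (difference -0.94, limma adjusted p = 0.0168), and was not called without adult sample 3 (limma adjusted p = 0.0643), within a range of 0.00327 to 1.

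The MHC class II pathway, which serves antigen-presenting cells, was set beside class I. Of 9 genes tested, 8 rose and none fell, beside 35.8% higher and 33.9% lower over all tested genes. The number called higher was 4 to 9 across the alternatives. H2-Oa passed the filter on reads mainly through the adult group, with 6, 2 and 10 reads against 0, 0, 0 and 1 in embryonic samples. H2-Aa had 84, 15 and 61 reads in adult samples and 0 in every embryonic sample, so it was not tested. Their median difference was 2.30. Cd74, the invariant chain, had 279, 61 and 258 reads in adult samples, against 1, 1, 3 and 3 reads in embryonic samples (difference 4.74, limma adjusted p = 1.78e-07). H2-Ab1 had 103, 28 and 108 reads in adult samples, against 1, 3, 1 and 0 reads in embryonic samples (difference 4.16, limma adjusted p = 5.18e-06). On the log2(CPM + 1) scale, which shrinks differences of low genes, they were 2.93 for Cd74 and 1.96 for H2-Ab1. Adult sample 2 held far fewer reads of both than the other adult samples, and was the lowest adult sample for 8 of the 9 tested genes. B2m and H2-K1 showed no such gap, with adult sample 2 at 53.8 and 25.2 CPM.

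Several cell types with class I molecules also differed between the stages. Beside the marker counts below stand the shares over all tested genes, 35.8% higher and 33.9% lower. All 13 microglial markers rose (median difference 3.10), and their summed level was 462 to 466 CPM in adult samples, against 45.7 to 53.4 CPM in embryonic samples. No microglial marker was at 0 in any sample, and the most abundant, Csf1r, the receptor that microglia need to survive, differed by 3.28. The most abundant marker of border macrophages, Mrc1, differed by 2.25 and that of endothelium, the glucose transporter Slc2a1, by 1.29. All 5 border macrophage markers rose (11.1 to 16.2 CPM in adult samples, against 1.196 to 1.99 CPM in embryonic samples). Of 12 endothelial markers, 8 rose, 1 fell and 3 were not called (370 to 411 CPM in adult samples, against 189 to 220 CPM in embryonic samples). That sum rose mainly through Slc2a1 (means 112 CPM in adult and 47.8 CPM in embryonic cortex), Flt1 (77.9 and 20.3 CPM) and Slco1a4 (47.2 and 0.169 CPM). Cldn5 (34.1 and 33.2 CPM), Cdh5 (15.9 and 15.7 CPM) and Tie1 (11.2 and 14.5 CPM) were not called, and Kdr fell (17.7 and 31.5 CPM). All 8 meningeal markers (238 to 327 CPM in adult samples, against 81.5 to 91.8 CPM in embryonic samples) and all 7 choroid plexus markers (1057 to 1276 CPM in adult samples, against 7.81 to 11.4 CPM in embryonic samples) rose as well. Most of the meningeal sum came from Igf2 (means 133 CPM in adult and 43.2 CPM in embryonic cortex) and Pdgfra (77.4 and 37.0 CPM). The other meningeal markers had embryonic means from 0.0660 CPM for Slc6a13 to 2.49 CPM for Col1a2. Lymphocyte markers summed to 16.1 to 23.4 CPM in adult samples, against 1.03 to 1.86 CPM in embryonic samples, carried by Cd4 and Ptprc, while Cd3e, Cd3d, Cd3g and Ncr1 had 0 to 6 reads a sample. Neutrophil markers summed to 0.763 to 2.84 CPM in adult samples, against 0.354 to 0.612 CPM in embryonic samples, and of 5 tested 2 were higher. That number ran over 0 to 4 across the alternatives and over 1 to 3 when single samples were left out, and S100a9 was not called with no filter on low values (limma adjusted p = 0.129) or no mean-variance trend (limma adjusted p = 0.0540). All 6 oligodendrocyte and all 7 astrocyte markers rose. Of 7 erythroid markers 4 fell (365 to 919 CPM in adult samples, against 1012 to 1540 CPM in embryonic samples). As in the MHC class II list, adult sample 2 was the lowest adult sample for the neutrophil and erythroid sums. In adult samples 1 to 3 these were 2.84, 0.763 and 2.68 CPM for neutrophils and 919, 365 and 557 CPM for erythroid cells. The part of these cells in the class I result was not tested.

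**Figure D4:**
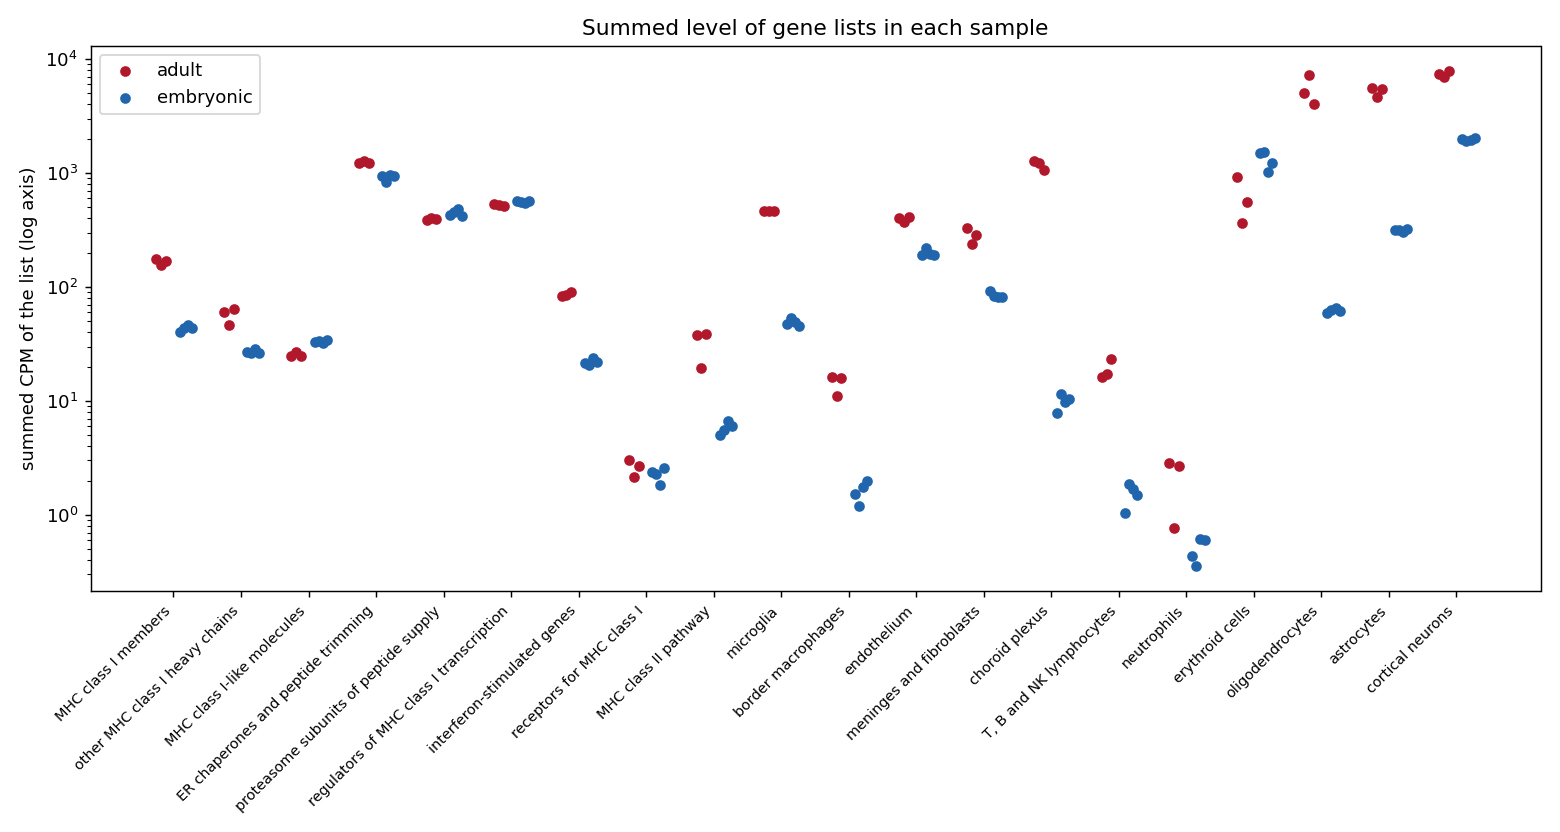
Summed CPM (vertical axis, log scale) of the MHC class I genes, the related lists and the cell type marker lists in each adult (red, left, n = 3) and embryonic (blue, right, n = 4) sample. The class I-like, proteasome, regulator and erythroid sums are lower in all adult samples, the receptor sums overlap and the other sums are higher. The MHC class II, border macrophage, neutrophil and erythroid sums show a lower adult sample 2, while the microglial sums of the adult samples nearly coincide.

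Set against the microglial markers, the 6 genes fell into groups. B2m reads were 15.7%, 11.5% and 12.6% of the summed microglial marker reads in adult samples, against 10.4%, 10.7%, 12.3% and 14.4% in embryonic samples, and the groups overlapped. They also overlapped for H2-K1, at 5.74% ± 0.320 in adult and 5.32% ± 1.39 in embryonic samples, and for Tap2, at 1.67% ± 0.154 in adult and 1.84% ± 0.401 in embryonic samples. H2-D1 was 8.64% ± 0.807 of the microglial sum in adult samples and 30.7% ± 3.36 in embryonic samples, with no overlap. Tap1 (0.587% ± 0.141 in adult and 2.46% ± 0.604 in embryonic samples) and Tapbp (6.20% ± 0.303 in adult and 37.1% ± 2.50 in embryonic samples) were likewise lower in all adult samples. Against the endothelial sum, B2m (15.6% ± 2.14 in adult and 2.93% ± 0.431 in embryonic samples), H2-K1 (6.76% ± 0.227 in adult and 1.304% ± 0.324 in embryonic samples) and Tap2 (1.96% ± 0.0706 in adult and 0.452% ± 0.102 in embryonic samples) were higher in all adult samples. H2-D1 was higher there too, by less (10.2% ± 0.505 in adult and 7.55% ± 0.923 in embryonic samples). The groups overlapped for Tap1 (0.695% ± 0.180 in adult and 0.605% ± 0.144 in embryonic samples) and Tapbp (7.33% ± 0.793 in adult and 9.12% ± 0.703 in embryonic samples). The endothelial sum rose through some of its markers and not others, so ratios to it also depend on that mix. All ratios to marker sums were chosen after the values were seen and carry no test.

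The exon table listed exons of B2m (4), H2-D1 (8) and Tapbp (6) on the mm9 build. Each value is taken as the gene's reads over the exon's reads, rounded to a whole number, so the share of an exon is known only in coarse steps. Summed over a gene's listed exons, the shares came to 99.4% to 146% a sample for B2m, 105% to 123% for H2-D1 and 88.5% to 95.9% for Tapbp, so they do not divide the gene's reads exactly. Over all exons tested, 4.86% were called by limma's diffSplice, and of these 18 exons 1 was. Tapbp exon 5, at position 34063575 of chromosome 17, took 5.88%, 4.35% and 4.55% of the gene's reads in adult samples, against 3.85%, 4.17%, 2.94% and 4.0% in embryonic samples (diffSplice adjusted p = 0.0375). The groups did not overlap but adult samples 2 and 3 stood just above the embryonic ones. The call was lost without adult sample 1 (adjusted p = 0.331), adult sample 2 (0.0731), or embryonic sample 2 (0.0543), 3 (0.211) or 4 (0.0834), all in diffSplice, within a range of 0.0114 to 0.331. B2m exon 3, at position 121977383 of chromosome 2, took 9.09%, 12.5% and 11.1% of reads in adult samples, against 1.099%, 0.775%, 7.69% and 7.14% in embryonic samples. In embryonic samples 1 and 2 that stands for 1 read or none, and the exon was not called (diffSplice adjusted p = 0.0565), though it passed without embryonic sample 3 (0.0120) or 4 (0.0192).

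The genes with the most similar profiles were found by the root mean square difference over the 7 samples after subtracting each gene's embryonic mean. Nearest to B2m were Epdr1 (0.0966) and Zbtb7b (0.105), and nearest to H2-K1 were Dcdc2a (0.0860) and Cyp2j9 (0.115). Nearest to H2-D1 was Prmt8 (0.0534). Tap1 lay nearest to Frem1 (0.116) and Pcp2 (0.138), and Tap2 to Clybl (0.0829) and Hmha1 (0.109). Tapbp had the closest neighbours, Pip5k1c (0.0221) and Usp20 (0.0337). No gene of the related antigen presentation lists was among those named here.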

How the data were processed

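Per the labels' protocols, RNA of mouse cerebral cortex was taken up in trizol and made into Illumina mRNA libraries. The submitters' processing notes name TopHat 1.0.13, HTSeq 0.5.3p3, Bowtie 0.12.7.0, SAMtools 0.1.7a, CASAVA 1.7.1 and build mm9, without a role for any. The deposited gene values are variance-stabilized by the authors on a log2-like scale, and the exon values, deposited as a score, stand for 1 over a ratio, per the file headers. The transforming tool was not given in the sources used here. All 14 columns were used.

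Each gene column is a smooth function of whole numbers, so read counts were recovered from it. Every recovered count (100% of them) lay within 0.1 of a whole number, in part by construction, since the 400 lowest steps were assigned. The exon score steps through whole numbers that behave as gene reads over exon reads: 96.8% of 36810 values were reached by a whole number of exon reads, against 8.85% after gene reads were moved by 1 to 200.

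A row needed a value above the column's lowest in at least 4 of 7 samples. Groups were compared with limma 3.58.1 (R 4.3.3; lmFit, eBayes with trend, two-sided, Benjamini-Hochberg over 22828 genes), and exons with diffSplice over 86181 exons. The procedure was tested on simulated data. Named genes are the 6 pathway genes, in each related list the 2 largest called increases and the largest called decrease, in each marker list the gene of highest mean level, and the 2 nearest profiles of each pathway gene. Psmb10, Psmb5 to Psmb7, Psme2, Psme3, Cd1d2, Nlrc5, the receptor chains and chaperones were named after their values were seen. The genes and all lists were chosen with earlier results of these data known. Of 204 listed genes, 194 matched by symbol, 3 by an older symbol and 7 were not matched. Lengths and word sharing come from GENCODE M21. Alternatives were other filters, median centring, no trend, voom on recovered counts, log2(CPM + 1), a 2-fold null, a replicate block and leaving out each sample. The labels give no batch or date. Some genes that these rules select are not reported here.

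Samples with the same number in both groups correlated by 0.039, 0.083 and 0.108 in their deviations from the group means over 16596 genes, so the numbers were not taken as pairs. Replicates of a group differed by more than counting noise (chi-square over degrees of freedom 5.11 to 19).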

Additional observations from a re-analysis of the deposited data

Results flagged for a closer look

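Among 51 values tested, 5 had an embryonic sample far from the other 3 on the deposited scale, judged by its gap to the nearest sample over the group's range (Dixon's rule). Chance gives about 1 in 20 groups such a gap, and none of the 5 belongs to B2m, H2-K1, H2-D1, Tap1, Tap2 or Tapbp. Lilrb4 (gap over range 0.885) had 0 reads in embryonic sample 4, beside 2, 3 and 2 reads in the others, and S100a9, a neutrophil marker (0.866), had 0 reads in embryonic sample 1, beside 4, 4 and 6. Enpp2, a choroid plexus marker (0.884), was at 6.13 CPM in embryonic sample 1, beside 8.37, 8.05 and 8.23 CPM. Mbp, a myelin gene (0.849), was at 18.5 CPM in embryonic sample 4, beside 21.0, 20.6 and 20.8 CPM. Slc1a2, an astrocyte marker (0.836), was at 109.6 CPM in embryonic sample 3, beside 118.4, 118.2 and 121.4 CPM.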

How the results depend on the processing

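The 6 genes stayed higher in adult cortex under all 15 alternatives, and were called in all but the 2-fold null, where Tap1 (1.05) and Tapbp (0.73) had an adjusted p of 1 in limma's treat. Their differences ranged over 3.15 to 3.42 for B2m, 2.96 to 3.37 for H2-K1, 1.28 to 1.53 for H2-D1, 0.75 to 1.24 for Tap1, 2.21 to 3.11 for Tap2 and 0.55 to 0.77 for Tapbp. Median centring moved every difference by -0.18 and left 43.6% of all calls on the higher side, against 51.4% without it. The 2-fold null left 3203 genes higher and 1933 lower, 39 and 3 of the related lists (63 and 15 before) and 4 lower marker genes (10 before). With voom on the recovered counts 7813 genes were called higher and 8371 lower. The number of exons called was 0 to 1 when single samples were left out. Without embryonic sample 3 or 4, and with the replicate block, the exon called was B2m exon 3 (adjusted p = 0.0120, 0.0192 and 0.0379 in diffSplice) in place of Tapbp exon 5. The numbers of the samples do not pair them: adult samples 2 and 3 correlated best with the embryonic sample of their own number, but adult sample 1 did so with embryonic sample 4 (0.243). No adult sample bears the number 4, so with the number as a block embryonic sample 4 does not enter the differences. They equal those found without that sample, and the block is no separate check of them. These differences were 3.38 for B2m, 3.31 for H2-K1, 1.44 for H2-D1, 1.09 for Tap1, 2.67 for Tap2 and 0.71 for Tapbp. With the block 8006 genes were called higher and 7549 lower, and Tapbp exon 5 had an adjusted p of 0.175 in diffSplice. The block also ended the call of Lilrb4 (0.94, limma adjusted p = 0.0858). Of the other genes named by the fixed rules, the log2(CPM + 1) scale moved these by more than 1.5 times: H2-M3 (1.38), Mr1 (1.87), Psmb8 (1.52), Psmb9 (1.03), H2-Ab1 (1.96), Cd74 (2.93), Pcp2 (0.42), Lilrb4 (0.31), S100a9 (0.58) and Cd247 (-0.33). Genes named after their values were seen, such as Nlrc5, Psmb10 and Cd1d2, were not followed singly across the alternatives. Without embryonic sample 1 S100a9 had a difference of 1.203, and voom gave Psmb9 3.33 and Cd247 -1.49. Depth limits, among others, Tap1, Tap2, H2-M3, Mr1, Psmb8, Psmb9, Ifit3, Cd74, H2-Ab1, Nlrc5 and the receptor genes, which rest on few reads in embryonic samples.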
